A study of Mus musculus with 10 samples.

Results

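Genes of fatty acid oxidation and targets of the nuclear receptor PPAR alpha were examined in the jejunum of mice whose gut epithelium had lost Pcyt1a. The 36 genes were the receptor itself, Ppara, and enzymes, carriers and secreted proteins named as a list, not picked by a threshold. All 36 had a probe set with 1 gene symbol, out of 22180 genes measured, and no filter on low values was applied. Where a gene had several probe sets, the one with the highest mean was kept, which concerned Crat alone among the 36.

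The study measured 10 samples of female mice aged 10 to 12 weeks, with 1 Affymetrix array per sample. In the 5 knockouts, numbered 1 to 5, both copies of Pcyt1a carried LoxP sites and the mice also carried VilCreERT2, a Cre recombinase that tamoxifen activates and that the villin promoter drives in gut epithelium. The 5 controls, numbered 6 to 10, carried the LoxP sites without the Cre. Both groups received tamoxifen for 5 days, ate a high fat diet for 4 days and then went without food overnight. A 3 cm piece of jejunum was taken from each, so the RNA also holds cells in which villin is not active. The sample labels give the fasted state although the series' own text mentions re-fed mice, and the source label of the controls names a loss of phosphatidylcholine synthesis, against their genotype.

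PPAR alpha is a receptor that binds fatty acids and, together with a retinoid X receptor, binds DNA at repeats of a short hexamer and raises the transcription of genes that burn fat. Fatty acids enter mitochondria as carnitine esters, are shortened step by step by the beta-oxidation spiral, and pass electrons to the respiratory chain through electron transfer flavoprotein. Peroxisomes shorten the longest and branched chains, and omega oxidation by the Cyp4a enzymes starts from the other end of the chain. In the small intestine these genes are most active in absorptive cells, which meet dietary fat, and in a fast they answer to fatty acids released from fat tissue.

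The stretches before the start sites of members show which of them carry the hexamer AGGTCA, the unit that is repeated in the receptor's binding element. RefSeq windows of the assembly GRCm38.p6, 300 bases long and reaching past the start site, were found for 29 members (30 windows). The complete element, 2 copies of AGGTCA in the same direction with 1 free base between them, was searched on both strands and was in 0 of the 30 windows and in 0.0396% of the 32851 windows of all genes. With each copy loosened to AGGNCA it was in 0 of 30 against 0.381% of all windows. A single AGGTCA, which the complete element contains, was in 3 of 30 windows, those of Cpt1a, Acadm and Acadvl, against 16.3% of all windows. A window without these letters says nothing about more distant sites. Cpt1a and Acadm are shown because both hold the hexamer, here read as TGACCT on the gene's strand and set in capitals. Their levels moved in opposite ways with that of Ppara between arrays, that of Acadm only within 11.03 to 11.24. The Cpt1a stretch is chr19:3323051-3323300 on the plus strand, with the hexamer 94 to 89 bases before the start, and that of Acadm is chr3:153944644-153944893 on the minus strand, with the hexamer 249 to 244 bases before the start.
Cpt1a: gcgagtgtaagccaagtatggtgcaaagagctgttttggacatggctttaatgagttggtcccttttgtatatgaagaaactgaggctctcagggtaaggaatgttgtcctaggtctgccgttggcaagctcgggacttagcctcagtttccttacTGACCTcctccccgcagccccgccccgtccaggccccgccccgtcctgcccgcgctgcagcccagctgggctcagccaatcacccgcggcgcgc
Acadm: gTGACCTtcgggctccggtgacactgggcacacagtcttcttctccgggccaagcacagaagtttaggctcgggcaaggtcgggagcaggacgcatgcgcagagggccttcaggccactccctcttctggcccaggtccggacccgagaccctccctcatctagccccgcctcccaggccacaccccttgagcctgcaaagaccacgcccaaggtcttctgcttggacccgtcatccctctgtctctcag

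Acot1 and Acot2, the neighbouring thioesterase genes with the highest positive differences in the list, are shown to compare their upstream sequence. The stretch of Acot1 is chr12:84009252-84009501 and that of Acot2 is chr12:83987611-83987860, both on the plus strand. Aligned end to end, they were identical in 148 of 295 columns, gaps included (50.2%). Capitals mark the longest run they share, 9 bases, and how often unrelated stretches share such a run was not tested.
Acot1: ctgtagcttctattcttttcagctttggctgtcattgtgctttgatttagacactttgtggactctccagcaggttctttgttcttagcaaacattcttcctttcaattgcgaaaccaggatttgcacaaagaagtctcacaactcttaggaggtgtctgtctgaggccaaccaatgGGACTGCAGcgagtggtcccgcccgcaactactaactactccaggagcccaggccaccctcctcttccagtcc
Acot2: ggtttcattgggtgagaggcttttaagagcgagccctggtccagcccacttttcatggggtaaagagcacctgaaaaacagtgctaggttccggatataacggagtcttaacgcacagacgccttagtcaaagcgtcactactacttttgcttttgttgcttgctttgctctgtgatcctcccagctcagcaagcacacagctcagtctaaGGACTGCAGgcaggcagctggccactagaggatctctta

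Values below are log2 intensities, and differences are log2 fold changes, knockout minus control, with the standard error (SE) of limma's fit over all 22180 genes. The level of one probe set says nothing about that of another. A gene was called when its Benjamini-Hochberg adjusted p in limma was under 0.05. Pcyt1a fell by 1.93 (SE 0.13, limma adjusted p = 9.58e-05), and its 5 knockout values, 7.14 to 7.80, lay under the 5 control values, 9.18 to 9.55. Markers of absorptive enterocytes (14 of 15 measured) summed to intensities of 77479 to 95330 in knockouts and 85306 to 97947 in controls. Control 8 stood apart in markers of hepatocytes, of which 6 of 8 were highest on that array. Albumin (Alb) read 10.41 there and 5.18 to 6.75 on the other arrays, and the fibrinogen gene Fgb read 6.71 against 3.98 to 4.65. Paneth cell markers (11 of 12 measured), which mark the base of the crypts, ranged from 11580 to 63483 in knockouts and from 11027 to 52776 in controls as summed intensity, and were low on knockout 2, control 6 and control 8. Markers of crypt and dividing cells (11 of 12) summed to 3670 to 7201 in knockouts and 2366 to 5264 in controls. In tissue pieces, fewer cells of a type and less RNA per cell cannot be told apart.

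Differences in the list lay on both sides of 0. None of the 36 members was called in limma's fit, where 6 of 22180 genes were (0.0271%; 0.00451% higher and 0.0225% lower in knockouts), and the smallest adjusted p of a member was 0.197. Differences were positive in 19 members and negative in 17, from -0.41 to 0.56. Their median was 0.01, against -0.01 over all genes. At an unadjusted p under 0.05 there were 4 members, 3 higher (Acot1, Acot2, Cpt1a) and 1 lower (Cyp4a31), which is 11.1% of the list against 13.9% of all genes (8.29% higher, 5.56% lower). This count was 2 without knockout 1, control 6, control 9 or control 10 and 1 without knockout 3. The 2 groups overlapped in 36 of 36 members, while they did not overlap in 2.60% of all genes. The 95% interval of the difference lay within -0.5 and 0.5 in 26 of 36 members, against 71.3% of all genes. Without knockout 2, 452 genes were called over all genes and 0 of the members, while leaving out any other array gave 2 to 5 calls. With the mean of the crypt and cell cycle markers as a covariate, chosen after seeing the data, the log2 difference was higher than without it in 27 members and lower in 9, and 14 changed sign. With the enterocyte covariate these numbers were 29, 7 and 9, and 0 members were called in either fit. The crypt and cell cycle markers themselves differed between the groups. Of the 11 measured, 9 had an unadjusted limma p under 0.05, all higher in knockouts, against 13.9% of all genes (8.29% higher). A covariate that differs with genotype cannot part tissue makeup from genotype, here or in the values by gene below.

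**Figure D1:**
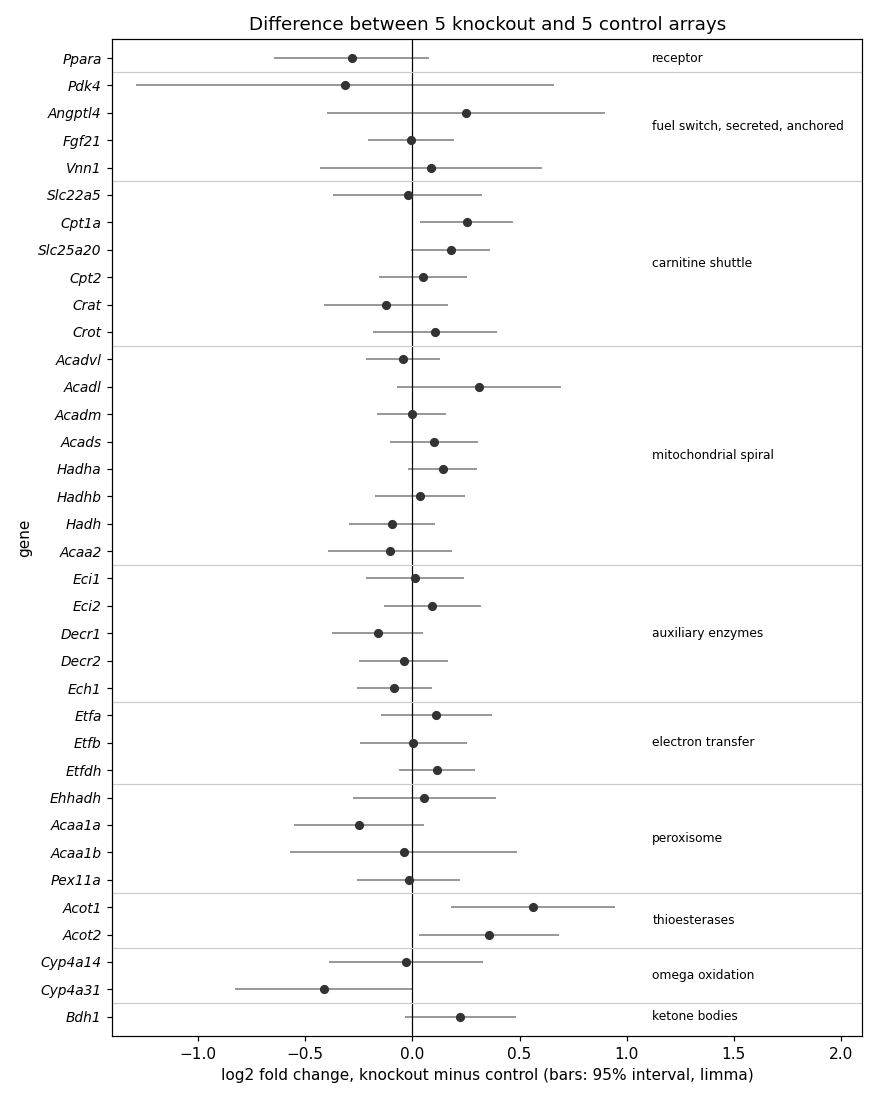
Log2 fold change of each of the 36 genes (x axis, knockout minus control), with the 95% interval of limma's fit as a bar, grouped by role on the y axis (5 arrays per group). The intervals of 4 genes, Acot1, Acot2, Cpt1a and Cyp4a31, leave out 0, and the widest interval is that of Pdk4, from -1.29 to 0.66.

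Ppara, the receptor, differed by -0.28 (SE 0.16) and was not called. Its values were 7.56, 8.31, 7.69, 7.95 and 8.12 in knockouts 1 to 5, and 8.46, 8.08, 8.55, 8.02 and 7.94 in controls 6 to 10, an order kept throughout. Knockouts 1 and 3 were lowest, controls 6 and 8 highest, and the middle of both groups overlapped. Knockouts averaged 7.93 ± 0.31 (SD, n = 5) and controls 8.21 ± 0.28 (SD, n = 5), with a limma adjusted p of 0.475 and a 95% interval of -0.64 to 0.08. The difference was -0.20 without control 8, the array with hepatocyte genes, -0.19 without knockout 1 and -0.38 without knockout 2. Enterocyte markers summed to a mean intensity of 85639 in knockouts and 92152 in controls, and with their mean log2 level as a covariate the difference in Ppara was -0.02. With the crypt and cell cycle covariate it was 0.05. The part of tissue makeup in the Ppara difference was not tested.

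Pdk4 encodes a kinase that shuts off pyruvate dehydrogenase and so turns cells from glucose to fat. It read 7.97, 10.03, 8.59, 8.69 and 8.64 in knockouts and 10.13, 9.93, 8.54, 9.00 and 7.89 in controls. Knockout 2, control 6 and control 7 were high and knockout 1 and control 10 low, so that both groups spanned nearly the same range. Its difference was -0.31 (SE 0.45, limma adjusted p = 0.799). It ran from -0.63 without knockout 2 to -0.06 without control 6, and was 0.47 with the crypt and cell cycle covariate and 0.13 when knockout 1, control 7 and control 9, high in smooth muscle markers, were left out. Within groups its SD was 0.85, at percentile 99.4 of all genes, and the 95% interval reached from -1.29 to 0.66.

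Angptl4, a secreted inhibitor of lipoprotein lipase and a sensitive target of the PPAR family, read 8.30, 9.02, 8.33, 7.74 and 8.20 in knockouts and 8.54, 8.45, 6.94, 8.24 and 8.17 in controls. Control 8, the array with hepatocyte genes, was the lowest of the 10, and knockout 2 the highest. The difference was 0.25 (SE 0.30, limma adjusted p = 0.754) with all arrays, -0.03 without control 8 and 0.61 with the crypt and cell cycle covariate. Fgf21, a fasting hormone made mainly by liver, read 4.90, 5.00, 4.78, 5.00 and 4.68 in knockouts and 4.96, 4.71, 4.92, 4.92 and 4.88 in controls. All 10 values lay under 5.81, the median of the mean log2 intensity over all genes, and the difference was -0.01 (SE 0.09). Vnn1, a pantetheinase anchored to the cell surface, ranged from 10.17 to 10.95 in knockouts and from 9.93 to 11.22 in controls, with a difference of 0.09 (SE 0.24), or -0.05 with that covariate.

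In the carnitine shuttle, Cpt1a had the largest difference. Its enzyme makes acylcarnitines at the outer mitochondrial membrane and sets the rate of entry. Knockouts read 9.96, 9.58, 10.00, 9.85 and 9.73 and controls 9.49, 9.71, 9.44, 9.57 and 9.64. Knockouts 1, 3, 4 and 5 lay above every control, and knockout 2 lay within the controls' range. The difference of 0.25 (SE 0.10) had a limma adjusted p of 0.287. It was 0.10 with the enterocyte covariate and 0.08 with the crypt and cell cycle covariate. The crypt markers were also higher on knockouts 1, 3, 4 and 5 than on every control and not on knockout 2. Their part in the Cpt1a difference was not tested and cannot be told apart from that of the genotype.

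Slc25a20, which carries acylcarnitines through the inner membrane, read 9.51 to 9.79 in knockouts and 9.40 to 9.55 in controls, a difference of 0.18 (SE 0.08, limma adjusted p = 0.376). Cpt2, which turns acylcarnitines back into acyl-CoA inside, differed by 0.05 (SE 0.09). Slc22a5, the plasma membrane carnitine transporter, differed by -0.02 (SE 0.16), with control 6 at 9.43 the highest array. Crot, which makes carnitine esters of the chains shortened in peroxisomes, differed by 0.11 (SE 0.13), and Crat, which acts on acetyl groups, by -0.12 (SE 0.13). The other probe set of Crat gave -0.16. With the crypt and cell cycle covariate the differences were 0.30 for Slc22a5, 0.38 for Crot and 0.12 for Crat. In all 6 shuttle genes the 95% interval lay within -0.5 and 0.5.

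The enzymes of the mitochondrial spiral showed small differences and, for several, little spread. The dehydrogenases open each turn. Acadl, for long chains, read 11.19, 11.58, 11.06, 11.54 and 11.01 in knockouts and 11.32, 11.03, 11.28, 10.57 and 10.62 in controls. Controls 9 and 10 were the lowest arrays, and the other controls lay among the knockouts. Its difference was 0.31 (SE 0.18, limma adjusted p = 0.461), 0.21 without control 9 and 0.57 with the crypt and cell cycle covariate. Acadm, for medium chains, kept within 11.03 to 11.24 on all 10 arrays and differed by -0.004 (SE 0.07, 95% interval -0.17 to 0.16). Acadvl, for very long chains, differed by -0.04 (SE 0.08) and Acads, for short chains, by 0.10 (SE 0.09).

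The later steps of the spiral are hydration, a second dehydrogenation and thiolysis. Hadha, the alpha subunit of the trifunctional protein, read 11.62, 11.49, 11.60, 11.66 and 11.50 in knockouts and 11.36, 11.41, 11.43, 11.47 and 11.49 in controls. The lowest knockout equalled the highest control. The difference was 0.14 (SE 0.07, limma adjusted p = 0.423), with a within-group SD of 0.06, at percentile 0.861 of all genes. Hadhb, the beta subunit, lies head to head with Hadha, and their windows around the start sites overlapped by 228 bases. It read 5.54 to 6.00 in knockouts and 5.61 to 5.77 in controls, a difference of 0.04 (SE 0.10). Hadh, for shorter hydroxyacyl chains, differed by -0.10 (SE 0.09) and the thiolase Acaa2 by -0.11 (SE 0.13).

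Auxiliary enzymes that prepare unsaturated chains differed by -0.16 to 0.09. The largest was Decr1, the mitochondrial dienoyl-CoA reductase, at -0.16 (SE 0.10), with knockouts 1 and 3 at 7.95 and 8.02 and the 5 controls between 8.28 and 8.36. Its peroxisomal counterpart Decr2 was at -0.04 (SE 0.10), the isomerases Eci1 and Eci2 at 0.01 (SE 0.10) and 0.09 (SE 0.10), and Ech1, which shifts double bonds of dienoyl chains, at -0.08 (SE 0.08). The carriers of electrons to ubiquinone were also close to 0. Etfdh differed by 0.11 (SE 0.08), Etfa by 0.11 (SE 0.12) and Etfb by 0.004 (SE 0.11). On control 8 Etfa read 10.40, against 9.86 to 10.01 on the other controls, and its difference was 0.20 without that array.

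None of the 4 peroxisomal members was called. The thiolases Acaa1a and Acaa1b are close relatives, and the labels do not say how far their probes tell them apart. Acaa1a read 7.71, 8.29, 7.89, 8.39 and 8.25 in knockouts and 8.48, 8.14, 8.22, 8.43 and 8.50 in controls, a difference of -0.25 (SE 0.14, limma adjusted p = 0.459). Acaa1b read 6.89, 8.00, 7.03, 7.89 and 7.54 in knockouts and 8.15, 7.35, 7.63, 7.27 and 7.15 in controls, a difference of -0.04 (SE 0.24), or 0.48 with the crypt and cell cycle covariate. Knockouts 1 and 3 were lowest in both genes, and control 6 was highest in Acaa1b. The bifunctional enzyme Ehhadh differed by 0.06 (SE 0.15), and Pex11a, which helps peroxisomes divide, by -0.02 (SE 0.11).

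The 2 acyl-CoA thioesterases of the list, which release free fatty acids from coenzyme A, had its highest positive values. Acot1, the cytosolic form, read 6.99, 7.00, 7.28, 7.79 and 7.21 in knockouts and 6.55, 7.22, 6.47, 6.57 and 6.64 in controls. Every knockout lay above controls 6, 8, 9 and 10, and control 7 was higher than 3 of the knockouts. The means of 7.25 ± 0.33 and 6.69 ± 0.30 (SD, n = 5 each) gave a difference of 0.56 (SE 0.18, limma adjusted p = 0.197), or 1.48-fold. Acot2, the mitochondrial form, read 10.13, 10.21, 10.41, 10.38 and 9.92 in knockouts and 9.70, 10.31, 10.03, 9.65 and 9.58 in controls, a difference of 0.36 (SE 0.15, limma adjusted p = 0.320). Control 7 was again the highest control. With the crypt and cell cycle covariate the differences were 0.33 for Acot1 and 0.22 for Acot2, and without control 7 they were 0.70 and 0.47.

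The RefSeq table orders Acot2, Acot1, Acot4, Acot3, Acot5 and Acot6 along mouse chromosome 12. Acot6 was named by rule among the other genes of the pathway, and Acot3 to Acot5 were added after their values were seen. Acot6 read 6.77, 6.92, 6.93, 6.82 and 6.84 in knockouts and 6.16, 6.70, 6.54, 6.36 and 5.53 in controls. Its groups did not overlap, as was so in 2.60% of all genes, and the knockouts lay close together. The difference in Acot6 was 0.60 (SE 0.18, limma adjusted p = 0.189). Between them, Acot4 was at 0.14 (SE 0.13), Acot3 at 0.01 (SE 0.13) and Acot5 at -0.12 (SE 0.11). Of these 6 genes 3 had an unadjusted p under 0.05, each higher in knockouts, against 13.9% of all genes (8.29% higher). None was called in limma's fit. The 6 were put together after the values of these 3 were seen, so the count is no test of the cluster. The genes are similar in sequence, and how far their probes cross-react was not tested. Acot12 and Acot13, thioesterase genes beyond these 6, were named after their values were seen. Acot12 was at -0.48 (SE 0.16, limma adjusted p = 0.211), while Acot13 was close to 0, at -0.08 (SE 0.12).

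**Figure D2:**
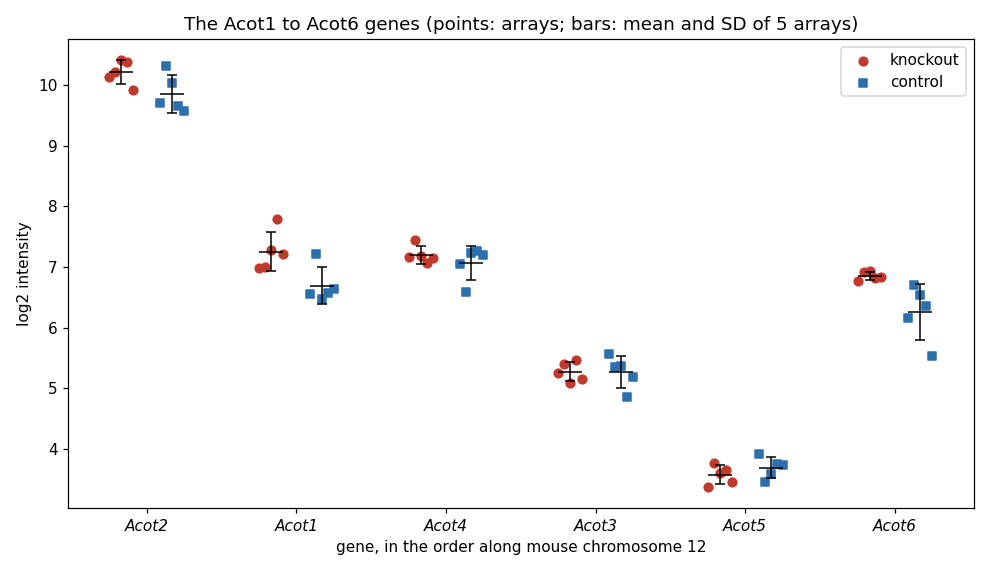
Log2 intensity (y axis) of the 6 Acot genes in their order along chromosome 12 (x axis), with a point per array and the mean and SD of 5 arrays per group. In Acot6 the knockouts, 6.77 to 6.93, lie above all controls, while Acot1 overlaps through control 7 and Acot2 through controls 7 and 8, and heights cannot be compared between genes.

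The omega hydroxylases were read at low intensity. Cyp4a31 gave the most negative difference of the list. It read 4.69, 5.11, 5.39, 5.70 and 5.52 in knockouts and 6.16, 5.74, 5.47, 5.54 and 5.57 in controls. Knockouts 1 and 2 were lowest, control 6 was highest, and the other 7 arrays lay between 5.39 and 5.74. The difference was -0.41 (SE 0.19, limma adjusted p = 0.357), and it was -0.27 without knockout 1. Cyp4a14, a strongly inducible target in liver, read 4.37, 4.61, 4.68, 4.37 and 4.08 in knockouts and 4.23, 4.54, 5.01, 4.19 and 4.29 in controls. Its highest value was on control 8, and the difference was -0.03 (SE 0.17) with that array and 0.11 without it. Mean intensities of both genes, like those of Fgf21 and Hadhb, were under the median of all genes. Bdh1, which interconverts the ketone bodies acetoacetate and beta-hydroxybutyrate, read 8.12, 8.17, 8.17, 8.42 and 8.14 in knockouts and 8.01, 7.88, 8.32, 8.02 and 7.67 in controls, a difference of 0.22 (SE 0.12, limma adjusted p = 0.429).

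**Figure D3:**
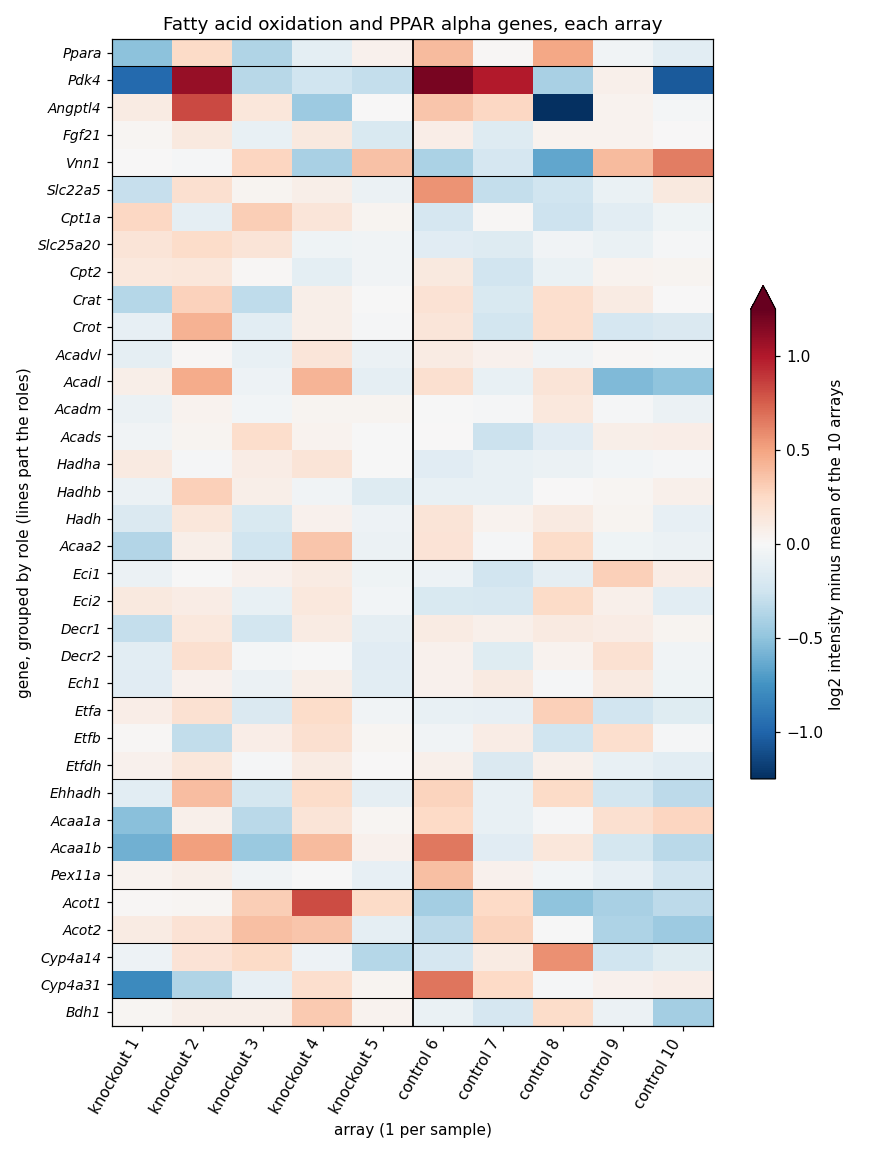
Log2 intensity of the 36 genes (rows, grouped by role) on the 10 arrays (columns), as the difference from each gene's mean, with knockouts left of the vertical line. Knockout 2 holds the highest value of 12 genes and knockout 1 the lowest of 10, and the strongest colours belong to Pdk4 and Angptl4.

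Arrays of the same group spread widely in some of these genes and little in others. Knockout 2 held the highest value of the 10 arrays in 12 members and knockout 1 the lowest in 10, while control 7 held the lowest in 9. The within-group SD ran from 0.06 in Hadha and 0.07 in Acadm to 0.56 in Angptl4 and 0.85 in Pdk4, with a median of 0.18 over the members and 0.19 over all genes.

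Several members varied with Ppara from array to array, as did many other genes. Each of the 35 other members was correlated with Ppara over the 10 arrays after the mean of each group was taken off, with a two-sided permutation test within groups (100000 resamples) adjusted over the 35. By Pearson r, 5 passed with a positive and 1 with a negative coefficient, and by Spearman rho 7 and 1, with 5 members passing by both. Over all 22179 other genes, with each of the 14400 pairings within groups, an exact permutation p under 0.05 was reached by 16.1% of genes and by 12 of the 35 members. An absolute r as high as that of Crat, the lowest that passed, was reached by 4.02% of genes and by 7 members. Adjusted over all genes, 0 genes passed, so the counts among the 35 hold for the list alone. The 3 closest by r were Crot, Acaa1b and Hadh. Crot read 10.72, 11.26, 10.69, 10.89 and 10.81 in knockouts and 10.97, 10.59, 11.03, 10.61 and 10.64 in controls. Hadh read 12.58, 12.90, 12.57, 12.81 and 12.70 in knockouts and 12.92, 12.80, 12.87, 12.79 and 12.66 in controls. Within the knockouts both genes, like Ppara, were highest on knockout 2 and lowest on knockouts 1 and 3. Among controls Crot was highest on controls 6 and 8, the controls highest in Ppara, and lay between 10.59 and 10.64 on the other 3. Crot had a Pearson r of 0.90 (permutation p = 0.00327, adjusted 0.0381) and a Spearman rho of 0.79 (permutation p = 0.018, adjusted 0.0702). For Acaa1b r was 0.86 (permutation p = 0.00517, adjusted 0.0393) and rho 0.90 (permutation p = 0.002, adjusted 0.0307). For Hadh r was 0.86 (permutation p = 0.00561, adjusted 0.0393) and rho 0.88 (permutation p = 0.00396, adjusted 0.0307). The other positive ones by r were Acadm and Crat. Acadm had an r of 0.84 (permutation p = 2.7e-04, adjusted 0.00945) and a rho of 0.93 (permutation p = 2.7e-04, adjusted 0.00945). It varied little, with a within-group SD of 0.07, at percentile 1.03 of all genes. Crat had an r of 0.83 (permutation p = 0.00844, adjusted 0.0492) and a rho of 0.88 (permutation p = 0.00438, adjusted 0.0307). By rho alone Ehhadh (0.88, permutation p = 0.00424, adjusted 0.0307), Acaa2 (0.85, permutation p = 0.00733, adjusted 0.0366) and Decr1 (0.84, permutation p = 0.00578, adjusted 0.0337) passed, and their r of 0.84, 0.71 and 0.69 did not. Crot passed by r alone.

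Cpt1a was lower where Ppara was higher. Its r was -0.90 (permutation p = 0.00204, adjusted 0.0357) and its rho -0.83 (permutation p = 0.0108, adjusted 0.0474). Hadha had an r of -0.71 (permutation p = 0.0451, adjusted 0.132) and a rho of -0.70 (permutation p = 0.0509, adjusted 0.156). The targets Pdk4 (r = 0.55, rho = 0.65) and Angptl4 (r = -0.11, rho = 0.13) did not pass, with permutation p of 0.122 and 0.76 for r and 0.0639 and 0.739 for rho (adjusted 0.279, 0.812, 0.172 and 0.808). Without knockout 2 and control 8, the arrays farthest from the median of Ppara once group means were taken off, r was 0.80 for Crot, 0.90 for Acaa1b, 0.82 for Hadh, 0.80 for Acadm, 0.73 for Crat and -0.83 for Cpt1a. None of the 35 then passed, but 8 arrays allow only 576 pairings within groups.

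The markers of tissue makeup moved over the same arrays. Over 13 marker lists correlated with Ppara in the same way, a choice made after seeing the data, Paneth cell markers had an r of -0.87 (permutation p = 0.00514, adjusted 0.0600) and a rho of -0.84 (permutation p = 0.009, adjusted 0.0585). For markers of the proximal gut r was 0.83 (permutation p = 0.0129, adjusted 0.0600) and rho 0.87 (permutation p = 0.00256, adjusted 0.0333). Without the same 2 arrays these were -0.79 and 0.71. The proximal list is not independent of the others, since it holds Fabp1, also listed among other genes of the pathway, and Lct, also an enterocyte marker. Crypt and cell cycle markers had an r of -0.74 (permutation p = 0.0138, adjusted 0.0600) and a rho of -0.68 (permutation p = 0.0464, adjusted 0.151), and enterocyte markers 0.76 (permutation p = 0.0237, adjusted 0.0647) and 0.64 (permutation p = 0.0786, adjusted 0.151). Without those arrays r was -0.73 and 0.67. Knockout 2, control 6 and control 8 combined high Ppara and Crot, low Cpt1a and low Paneth markers. The part of tissue makeup in the correlations was not tested.

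**Figure D4:**
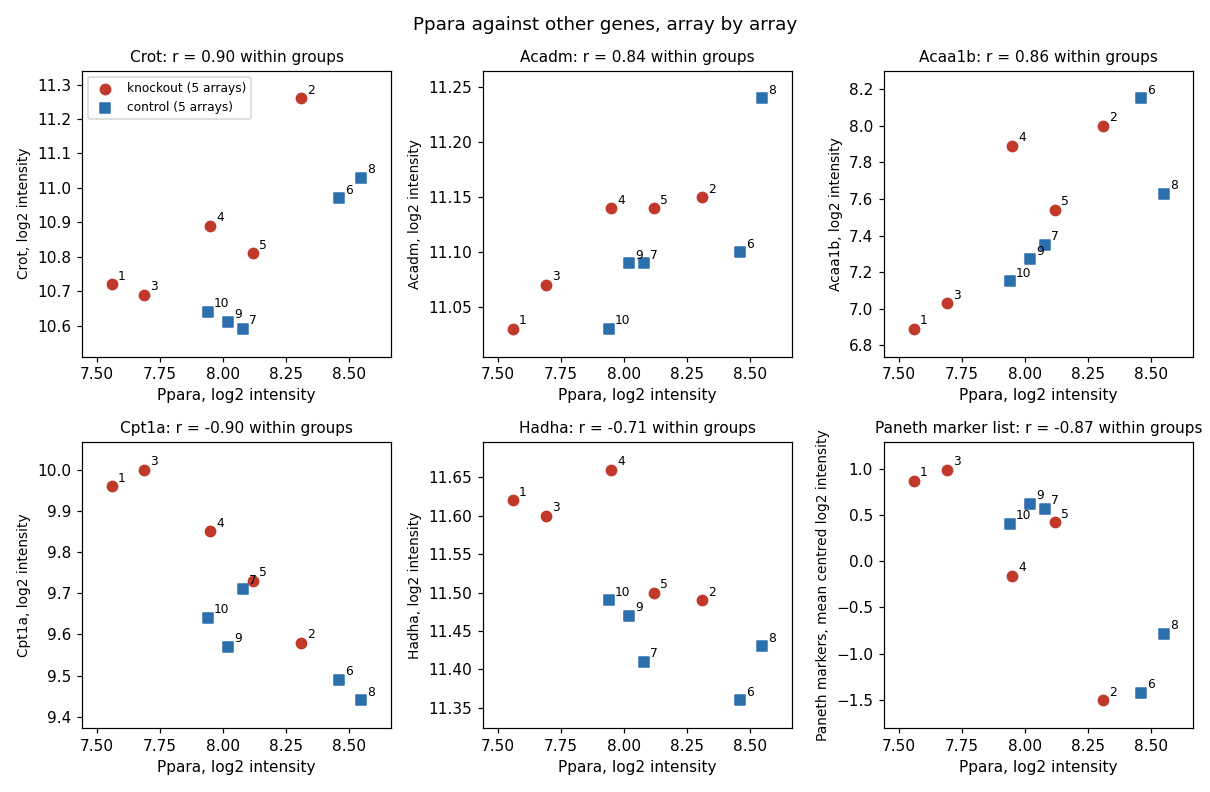
Log2 intensity of Ppara (x axis) against Crot, Acadm, Acaa1b, Cpt1a and Hadha and against the mean of Paneth markers (y axes), with a point per array, numbered as in the labels (circles: knockout, squares: control). Crot, Acadm and Acaa1b rise with Ppara, and Cpt1a, Hadha and the Paneth markers are lower where Ppara is high. Acadm and Hadha span little, 11.03 to 11.24 and 11.36 to 11.66.

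**Figure D5:**
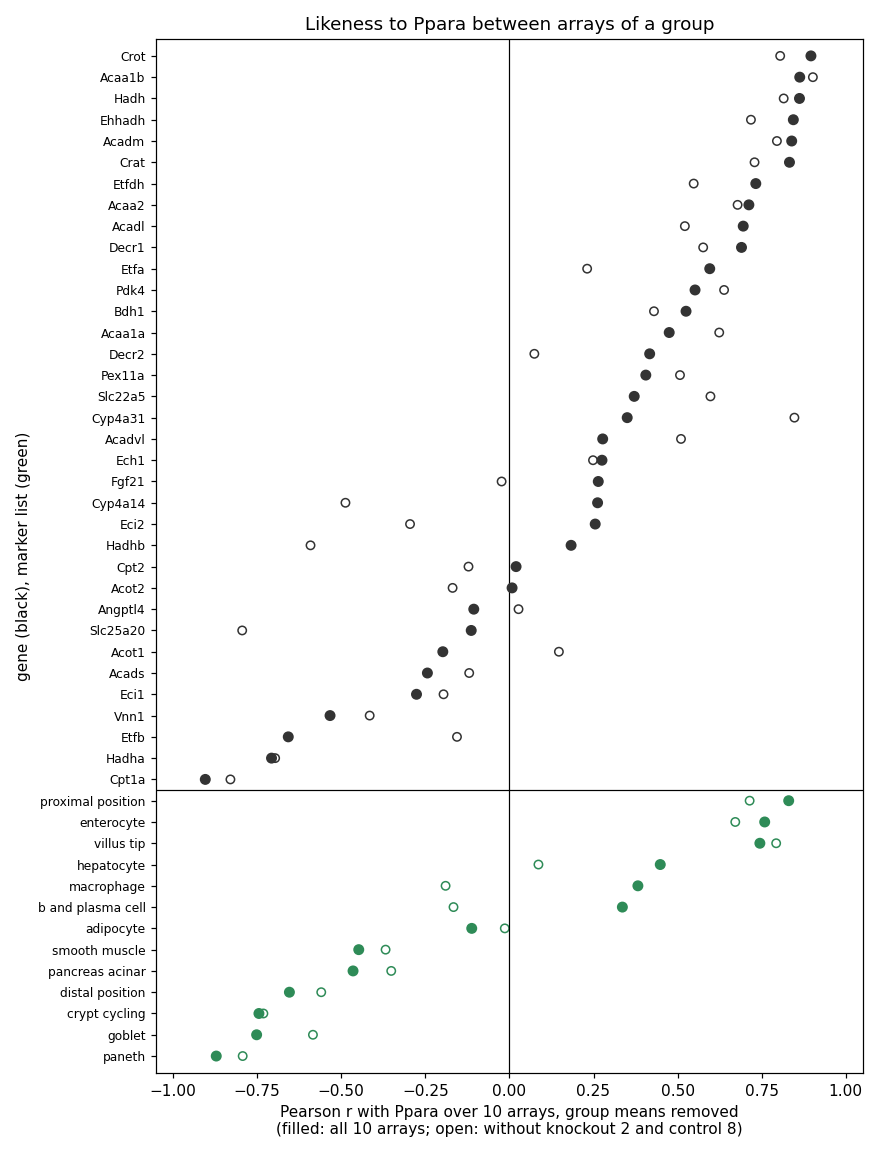
Pearson r with Ppara over the 10 arrays, group means removed (x axis), for the 35 other genes and the 13 marker lists (y axis), with filled points for all arrays and open points without knockout 2 and control 8. Positive coefficients belong to 26 genes and negative ones to 9, with Crot at 0.90 and Cpt1a at -0.90 as the extremes.

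Other genes of the pathway, from a list made without ranking them, gave no call either. Values were used for 90 of the 104 listed genes. None was called in limma's fit, and the median difference was -0.01. An unadjusted p under 0.05 was reached by 18 (20%), 12 higher and 6 lower, against 13.9% of all genes (8.29% higher, 5.56% lower). The groups did not overlap in 2 of the 90 (Acot6 and Pex7), while they did not overlap in 2.60% of all genes. The 6 smallest p-values belonged to Cyp4a12b, Lpin1, Fabp4, Oxct1, Acot6 and Acsl6, with limma adjusted p-values of 0.175 to 0.195.

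These 6 genes act at different points of lipid and ketone metabolism. Lpin1, a phosphatidate phosphatase and a partner of PPAR alpha in the nucleus, read 7.06, 6.77, 7.03, 6.85 and 6.97 in knockouts and 6.47, 6.79, 6.61, 6.64 and 6.58 in controls, and control 7 overlapped with knockout 2 alone. Its difference was 0.32 (SE 0.09), and 0.17 with the crypt and cell cycle covariate. Oxct1, which lets cells burn ketone bodies, read 9.18, 9.15, 8.89, 9.23 and 8.69 in knockouts and 8.47, 8.84, 8.76, 8.39 and 8.08 in controls, a difference of 0.52 (SE 0.15). Knockout 5 was the only knockout within the controls' range. Fabp4, a fatty acid binding protein of adipocytes, macrophages and endothelium, differed by 0.81 (SE 0.24), with macrophage markers (9 of 9 measured) also summing higher in knockouts, 1276 to 2123 against 931 to 1480, whose part in the result was not tested. Among adipocyte markers (7 of 8), summed intensities were 1174 to 1631 in knockouts and 1183 to 1842 in controls. That list holds Fabp4 itself. Cidec, at 9.50 to 10.10 in knockouts and 9.54 to 10.47 in controls, weighs heavily in the sum, which therefore says little about fat tissue. The omega hydroxylase Cyp4a12b was at -0.50 (SE 0.14), with a mean of 5.63, under the median of all genes, 5.81. The other measured Cyp4 genes of that pathway list, named after their values were seen, lay on both sides of 0. Cyp4a12a was at -0.02 (SE 0.16), Cyp4f14 at 0.11 (SE 0.12) and Cyp4f15 at -0.34 (SE 0.24). The acyl-CoA synthetase Acsl6 was at -0.44 (SE 0.13), or -0.26 as the mean of its probe sets.

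The receptor's relatives and partners, named after their values were seen, were not called. Ppard, the delta form, was at -0.14 (SE 0.10), Pparg at 0.27 (SE 0.21), with 0.11 without control 10 and 0.65 with the crypt and cell cycle covariate, and the partner Rxra at -0.09 (SE 0.10). The coactivator Ppargc1a was at -0.35 (SE 0.13, limma adjusted p = 0.268). With that covariate Ppard was at 0.01, Rxra at 0.03 and Ppargc1a at -0.08. In the respiratory chain, which takes up the electrons of beta-oxidation, 32 of 34 listed subunits were measured and the median difference was 0.06. An unadjusted p under 0.05 was reached by 1 (3.1%), higher in knockouts, against 13.9% of all genes. Differences were positive in 23 subunits and negative in 9, against 10381 and 11799 over all genes, and no test over the list was made. The groups did not overlap in 2 subunits, while they did not overlap in 2.60% of all genes.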

How the data were processed

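RMA intensities of 34472 probe sets on 10 arrays were deposited by the authors on the linear scale (1.88 to 15500.2). Per the submitters' processing notes, the tool was Affymetrix Expression Console, version 1.4.1.46. On the log2 scale 100% of the values sat on a grid of 0.01 (tolerance 0.001). The genome build, annotation and detection values were not given in the sources used here. Log2 was taken, and 23521 probe sets with 1 gene symbol in the platform annotation were kept (1814 had several, 9137 none), which gave 22180 genes. All 36 members matched the RefSeq gene table by gene ID. Groups came from the sample titles.

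The comparison of knockouts with controls used limma (version 3.58.1, R 4.3.3), adjusted over all genes. It was also run on simulated data with independent noise for each gene. That setting leaves out variation that genes share between arrays, so it does not show how reliable the calls are here. No label ties each sample to a mouse of its own, so a p-value reflects only the spread among the samples, which may be technical, and the number of arrays limits precision. The members and lists were chosen with earlier results of these data known.

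By the rule for named genes, all values were given for Pcyt1a, Ppara, Pdk4, Cpt1a, Angptl4 and Fgf21, members with an unadjusted p under 0.05, the 3 largest differences in each direction and near-identical pairs. It also took the 3 members most like Ppara and up to 6 other pathway genes by smallest p. Alternatives left out each array, changed the scaling, the filter on low values, the probe set choice, the variance model or the array weights, added a marker covariate or used a plain test with equal variances. The correlation with Ppara was also run over all genes, an addition made after seeing the data.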

Additional observations from a re-analysis of the deposited data

Results flagged for a closer look

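In 5 of the 104 groups of 5 arrays examined, 1 array lay far from the others by Dixon's gap test. Chance gives about 1 in 20. Angptl4 read 6.94 on control 8 and 8.17 to 8.54 on the other controls. Etfa read 10.40 on control 8 and 9.86 to 10.01 on the other controls. Acot1 read 7.22 on control 7 and 6.47 to 6.64 on the other controls. Bdh1 read 8.42 on knockout 4 and 8.12 to 8.17 on the other knockouts, and its difference was 0.17 without that array. Pex7, the import receptor for some peroxisomal enzymes, read 7.80 on knockout 4 and 7.61 to 7.65 on the other knockouts.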

How the results depend on the processing

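No member was called in limma's fit under any of the 22 alternatives, and at an unadjusted p under 0.05 there were 4 members with all arrays. That count was 1 to 5 with 1 array left out, 2 with a further quantile normalization, 1 with the enterocyte covariate, 2 with the crypt and cell cycle covariate and again 2 when knockout 1, control 7 and control 9, high in smooth muscle markers, were left out. The median difference of the members was 0.099 with the enterocyte covariate and 0.094 with the crypt and cell cycle covariate, against 0.01 without, and the cause was not tested. It was -0.02 to 0.04 with 1 array left out. Calls over all genes went from 6 to 452 without knockout 2, 388 with a Paneth covariate and 69 without the 3 arrays lowest in Paneth markers, with 0 members among them. Of 790 member values under these alternatives, 91 had the other sign, in 19 members, and none of these was called. In the correlation with Ppara by Pearson r, 6 members passed with all arrays, 3 with a further quantile normalization, 0 without the 2 arrays farthest in Ppara within their groups and 0 without the 3 arrays lowest in Paneth markers, where 576 and 144 pairings within groups limit the p. The crypt covariate and the fits without 3 arrays were chosen after seeing the data. No paired analysis was possible because the groups share no replicate numbers. No detection values were used, so the limit at low signal, as in Fgf21 or Cyp4a14, is not known.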

Other observations

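Cd36, which takes up long-chain fatty acids and is a PPAR target in several tissues, was named after its values were seen. It read 8.56, 10.48, 8.16, 9.94 and 9.47 in knockouts and 10.78, 10.27, 10.64, 10.05 and 9.80 in controls. Knockouts 1 and 3 were lowest, as they were in Ppara and Acaa1b, and knockouts 2 and 4 lay among the controls. The difference was -0.99 (SE 0.39, limma adjusted p = 0.287), -1.28 without knockout 2, -0.32 with the enterocyte covariate and -0.25 with the crypt and cell cycle covariate. Pex7, named likewise, differed by 0.22 (SE 0.08, limma adjusted p = 0.273). Its knockout values did not overlap with the control values of 7.27 to 7.55, as was so in 2.60% of all genes.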
